A study of Mus musculus with 6 samples.

Results

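The genes described here are 10 factors of histone H3 lysine 9 (H3K9) methylation and heterochromatin, out of the 43309 genes of the count table. They were chosen by name and not by a cut-off on any measured value, but with earlier results of these data known. The 10 are the H3K9 methyltransferase genes Setdb1, Ehmt1, Ehmt2, Suv39h1 and Suv39h2, the corepressor gene Trim28, the heterochromatin protein 1 (HP1) genes Cbx1, Cbx3 and Cbx5, and the chromatin protein gene Smchd1. All 10 were found in the table by gene identifier, and all 10 passed the minimum of 10 counts in at least 1 library that left 16823 genes for testing. Each had at least 802 counts in every library.

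The libraries were made with the TruSeq Stranded mRNA kit, which selects polyadenylated RNA and keeps the strand, from 2 µg of RNA. The cells were mouse embryonic stem cells (mESCs), which are pluripotent and can be kept as lines. All lines were of the strain J1 (129SV) and were grown in medium with serum on gelatin, without feeder cells. The control group held 3 lines with the Zbtb24 genotype wild-type (2lox/+), which therefore carried 1 loxP-flanked allele, and the other group held 3 lines labelled Zbtb24 knockout (1lox/1lox), homozygous for the allele left after recombination. ZBTB24 is a DNA-binding zinc finger protein. The paper describes the lines as clones and biological replicates. Each gave 1 library, so on that description differences between clones enter the spread within a group. The comparison asked how the transcriptome of the lines labelled knockout differed from that of the controls.

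Methylation of H3K9 marks silent chromatin. SETDB1, brought to DNA by TRIM28 and zinc finger proteins, writes trimethylation at retroviral elements and imprinted regions, the G9a (EHMT2) and GLP (EHMT1) heterodimer writes mono- and dimethylation over silent parts of euchromatin, and the SUV39H enzymes write trimethylation at pericentromeric repeats. HP1 proteins bind the methylated tail through a chromodomain and recruit further SUV39H enzyme, while SMCHD1 acts on the inactive X chromosome and at imprinted clusters.

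Library totals ranged from 25042261 to 28838924 counts, and the intervals below cover the spread between these libraries and their counting error. Zbtb24 did not go with its label. Its level was 18.2 ± 0.415 CPM (counts scaled to the library size, with TMM factors) in control and 36.1 ± 1.88 in the libraries labelled knockout (SD, n = 3 each), with a log2 fold change of 0.99 (edgeR adjusted p = 4.32e-23). Counts over the whole gene also include any transcript still made from the recombined allele, and the group is called labelled knockout throughout. Markers are counted as rising or falling at an edgeR adjusted p of at most 0.05, as 34.4% and 35.2% of all genes tested did. The summed levels of markers are scaled to the library total only, without TMM factors. Of the pluripotency markers 9 of 10 rose and 1 fell, with a summed level of 5194 to 5327 CPM in control and 6405 to 6457 CPM in the labelled knockout libraries. Of 6 tested fibroblast markers 5 fell, with a summed level of 60.4 to 63.2 CPM against 11.9 to 12.7 CPM. Lum was at 0 in every library and Postn at 0 in every library labelled knockout. Of 4 tested neural markers 2 rose and 2 fell, with a summed level of 107 to 111 CPM against 39.4 to 40.2 CPM, in which Olig2 rose from 1 to 2 counts to 269 to 313 counts and Nes fell from 2550 to 2700 counts to 461 to 537 counts. Of 5 trophoblast markers 1 rose and 3 fell (24.2 to 26.9 CPM against 8.88 to 10.7 CPM), of 4 tested mesoderm markers 1 rose and 2 fell (12.0 to 13.9 CPM against 5.03 to 5.24 CPM), and of 5 endoderm markers 1 rose and 3 fell (4.74 to 4.93 CPM against 4.23 to 5.67 CPM). All of these sums but that of the endoderm markers were apart between the groups, and their part in the results below was not tested. In bulk RNA, fewer cells of a type and less RNA per cell cannot be told apart.

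Across the 10 genes, the libraries labelled knockout had 6 genes at a lower and 2 at a higher level, and 2 did not pass. Ehmt1 and Ehmt2, which encode the subunits of the G9a/GLP enzyme, moved furthest without a correction for GC content and length, with which Ehmt2 was at -0.08 and Cbx1, at -0.30, came after Ehmt1. Ehmt1 fell by 31.0% and Ehmt2 fell by 19.6%. Of the HP1 genes, Cbx1 fell by 14.5%, Cbx5 fell by 10.1% and Cbx3 fell by 4.38%, while Setdb1 fell by 9.26%. Smchd1 rose by 8.59% and Suv39h2 by 7.55%. Trim28 and Suv39h1 did not pass at an adjusted p of at most 0.05 (edgeR's quasi-likelihood test, Benjamini-Hochberg adjustment over all 16823 genes). Calls were common in this comparison. Of all genes tested 69.5% were called, 35.2% as lower and 34.4% as higher, and among the 5800 genes within the abundance range of the 10, 79.2% were called. The 8 calls in 10 were therefore near the background. The median log2 fold change of the 10 genes was -0.11, beside -0.00 over all genes tested, and 9 of the 10 lay within the middle 50% of all genes, which ran from -0.40 to 0.29. Ehmt1 lay outside it.

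**Figure D1:**
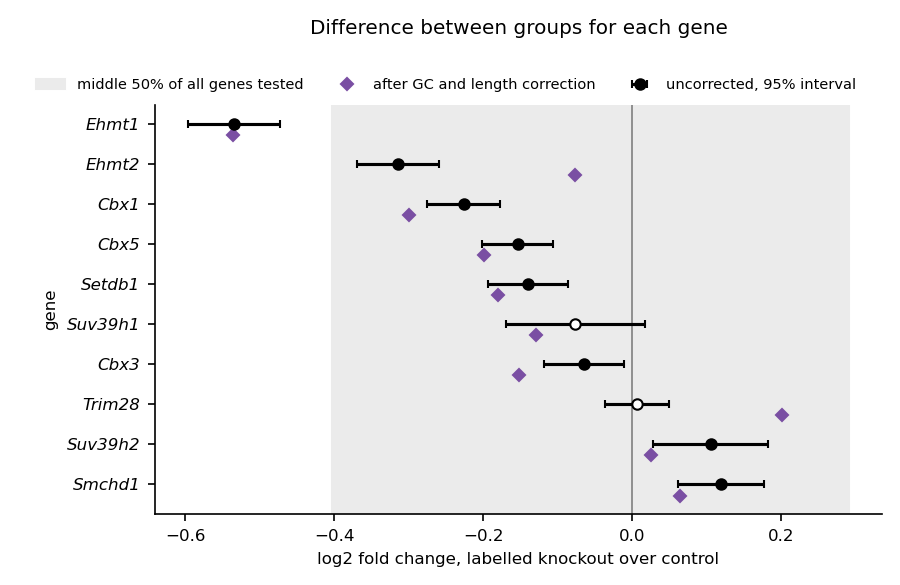
Log2 fold change of each gene in the libraries labelled knockout over control (x axis), with its 95% interval. Filled circles passed an adjusted p of at most 0.05 and open circles did not, purple diamonds give the value after correction for GC content and length, and the grey band holds the middle 50% of all genes tested. Ehmt1 lies at -0.53 without and -0.54 with the correction, whereas Ehmt2 moves from -0.31 to -0.08 and Trim28 from 0.01 to 0.20.

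Levels between genes were compared as TMM-scaled CPM per kb of the longest transcript. Trim28 was the highest of the 10 in the control libraries, at 735 ± 4.83 CPM per kb (SD, n = 3), followed by the HP1 genes Cbx1 at 176 ± 0.760, Cbx3 at 94.7 ± 1.76 and Cbx5 at 48.9 ± 0.781 CPM per kb. The methyltransferase genes were all lower. Ehmt2 was at 37.3 ± 0.434, Setdb1 at 32.9 ± 0.730 and Ehmt1 at 19.1 ± 0.397 CPM per kb. Smchd1 was at 14.6 ± 0.146 CPM per kb, and Suv39h1 and Suv39h2 were last, at 11.0 ± 0.747 and 10.9 ± 0.407 CPM per kb. Only the last pair of neighbours overlapped between libraries in the control group. In the libraries labelled knockout Ehmt2, at 29.7 to 30.5 CPM per kb, overlapped with Setdb1, at 29.4 to 30.4 CPM per kb, and Ehmt1, at 13.2 ± 0.316, lay below Smchd1, at 15.9 ± 0.0909. The SUV39H pair no longer overlapped there, with Suv39h2 at 11.7 ± 0.254 and Suv39h1 at 10.4 ± 0.294 CPM per kb. These levels were not corrected for GC content. With the GC and length correction the log2 fold change was -0.08 for Ehmt2 and -0.18 for Setdb1, so Ehmt2 then fell by less than Setdb1.

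**Figure D2:**
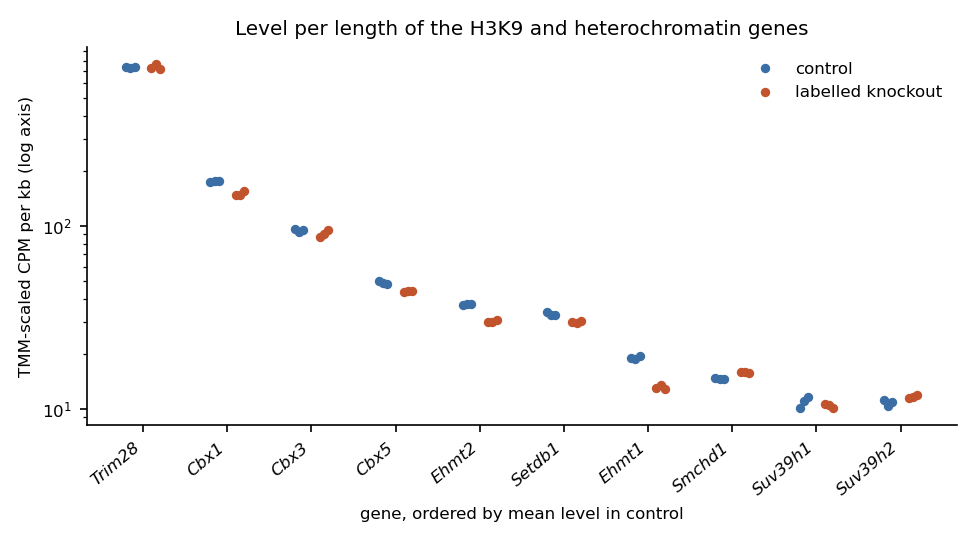
TMM-scaled CPM per kb of transcript (y axis, log scale) for each of the 10 genes, in order of their mean level in the control libraries. Each point is 1 library, blue for control and red for labelled knockout. Trim28 lies at 735 CPM per kb and the SUV39H genes near 11.0.

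SETDB1 is the enzyme that writes trimethylation together with TRIM28. Setdb1 (chromosome 3, 95323525 to 95357202, minus strand, mm10) was at 191, 184 and 183 CPM in control and at 168, 166 and 172 CPM in the labelled knockout libraries. Every library labelled knockout lay below every control library. The log2 fold change was -0.14 (95% interval -0.19 to -0.09, edgeR adjusted p = 8.00e-06).

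TRIM28, also named KAP1, is the scaffold that links KRAB zinc finger proteins to SETDB1 and HP1. Trim28 (chromosome 7, 12999114 to 13031035, plus strand) was at 2395, 2369 and 2397 CPM in control and at 2365, 2478 and 2346 CPM in the labelled knockout libraries, so the groups overlapped. Its log2 fold change of 0.01 (95% interval -0.04 to 0.05, edgeR adjusted p = 0.820) did not pass, and the interval limits a difference to a few percent on this scale. Correction for GC content and length gave 0.20 (edgeR adjusted p = 1.24e-13), so the call for Trim28 depends on that correction. The GC contents of Ehmt2 and Trim28 transcripts, 60.8% and 59.6%, were the highest of the 10, the others lying between 38.7% and 51.2%.

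Promoters were read from RefSeq on GRCm38.p6, as 250 bases before and 30 bases after a gene's start. ZBTB24 is known to bind CAGGACCT, whose reverse complement is AGGTCCTG, and 1.84% of all 32851 promoters held these letters on either strand. Of the 10 genes only Trim28 did, from 2 bases before its RefSeq start. That start lies inside the longer GENCODE span given for Trim28 above, which begins further upstream. The promoter of Cdca7, a chromatin remodelling cofactor gene and known ZBTB24 target, held the letters from 89 bases before its start, and both are shown because they share the motif, in capitals, and differ in response.
Trim28, chr7:13023902-13024181, plus strand: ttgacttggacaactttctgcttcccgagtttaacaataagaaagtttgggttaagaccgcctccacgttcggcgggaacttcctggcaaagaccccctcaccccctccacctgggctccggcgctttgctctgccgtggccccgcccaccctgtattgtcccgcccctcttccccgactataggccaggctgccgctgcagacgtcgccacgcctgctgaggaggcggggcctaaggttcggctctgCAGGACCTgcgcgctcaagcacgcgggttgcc
Cdca7, chr2:72475969-72476248, plus strand: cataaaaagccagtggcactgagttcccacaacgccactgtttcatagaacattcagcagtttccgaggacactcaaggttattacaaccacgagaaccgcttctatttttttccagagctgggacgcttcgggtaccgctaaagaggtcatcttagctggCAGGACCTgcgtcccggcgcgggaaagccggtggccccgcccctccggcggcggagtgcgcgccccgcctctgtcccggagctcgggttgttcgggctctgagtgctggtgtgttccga
Cdca7 was at 3880, 3907 and 3972 counts in control and at 1280, 1185 and 1478 counts in the labelled knockout libraries. It fell by 1.50 on the log2 scale (edgeR adjusted p = 6.67e-38), whereas Trim28, with the same 8 letters, had a log2 fold change of 0.01. A match of letters is a description, and binding was not measured here.

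Both G9a/GLP genes fell, by different amounts. GLP gene Ehmt1 (chromosome 2, 24789928 to 24919614, minus strand) was at 112, 112 and 116 CPM in control and at 77.8, 80.6 and 77.0 CPM in the labelled knockout libraries. The lowest control library was above the highest library labelled knockout by far more than the spread in either group. The log2 fold change was -0.53 (95% interval -0.60 to -0.47, edgeR adjusted p = 5.33e-21). Ehmt1 alone of the 10 moved by 0.5 or more on the log2 scale, and 20.0% of all genes tested were called with a fall of that size. Leaving out single libraries gave values between -0.55 and -0.52. The span of Ehmt1, introns included, overlaps those of 2 counted genes on its own strand, Gm37139 and Gm38147. Fragments on exons of both genes would not be counted, and whether exons are shared was not examined.

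G9a gene Ehmt2 (chromosome 17, 34898469 to 34914052, plus strand) was at 148, 151 and 151 CPM in control and at 120, 120 and 123 CPM in the labelled knockout libraries. The groups did not overlap. The log2 fold change was -0.31 (95% interval -0.37 to -0.26, edgeR adjusted p = 2.32e-14), and correction for GC content and length brought it to -0.08 (edgeR adjusted p = 0.00825). The gene stayed lower, at a smaller size. The ratio of Ehmt2 to Ehmt1 counts within a library was 1.32, 1.35 and 1.30 in control and 1.54, 1.48 and 1.59 in the labelled knockout libraries. The ratio was higher in all 3 libraries labelled knockout than in any control library, with a log2 difference of 0.22 (two-sided exact permutation test, p = 0.1, the smallest that 3 against 3 libraries allow, and 0.125 adjusted over 5 ratios). The size of this difference depends on the GC and length correction, with which the ratio was not recomputed. With it Ehmt2 was at -0.08 and Ehmt1 at -0.54 on the log2 scale, further apart than without it.

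The promoters of this pair are shown because the genes encode partners of 1 enzyme and both fell. Capitals mark the GC box GGGCGG or its reverse complement CCGCCC, a binding site of SP family factors. It occurred in 34.7% of all promoters and in at least 1 promoter of each of the 10 genes, 13 of 14 promoters in all. Ehmt1 held 3 copies, and the second of the Ehmt2 promoters held 4.
Ehmt1, chr2:24919580-24919859, minus strand: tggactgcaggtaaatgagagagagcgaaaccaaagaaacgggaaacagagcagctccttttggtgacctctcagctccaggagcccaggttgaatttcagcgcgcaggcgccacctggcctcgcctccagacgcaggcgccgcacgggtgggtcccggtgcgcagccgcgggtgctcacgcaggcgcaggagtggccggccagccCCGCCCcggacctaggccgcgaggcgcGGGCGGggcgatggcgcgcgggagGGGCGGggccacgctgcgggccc
Ehmt2, chr17:34898720-34898999, plus strand: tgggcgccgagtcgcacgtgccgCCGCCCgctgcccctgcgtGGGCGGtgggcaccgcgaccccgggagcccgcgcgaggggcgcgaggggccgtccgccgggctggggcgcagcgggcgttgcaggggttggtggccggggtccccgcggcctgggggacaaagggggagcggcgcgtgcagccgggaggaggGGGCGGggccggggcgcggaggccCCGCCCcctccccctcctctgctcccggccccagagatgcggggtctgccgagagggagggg
The promoters of the 10 genes held 8 to 38 CG dinucleotides, with a median of 28, beside a median of 6 over all promoters. The GC box was thus shared by genes that fell, rose and did not pass.

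SUV39H1 and SUV39H2 are the paired enzymes of pericentromeric heterochromatin. Suv39h1, on chromosome X, was at 31.7, 34.6 and 36.4 CPM in control and at 33.3, 32.6 and 31.5 CPM in the labelled knockout libraries. The groups overlapped, and the log2 fold change of -0.08 (95% interval -0.17 to 0.02, edgeR adjusted p = 0.140) did not pass. It passed without control replicate 1 (-0.13, edgeR adjusted p = 0.0163), the control library with the lowest value, and after GC and length correction (-0.13, edgeR adjusted p = 0.00982). Without control replicate 3, the highest, it was -0.03 (edgeR adjusted p = 0.593).

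Suv39h2, on chromosome 2, was at 48.5, 45.0 and 47.4 CPM in control and at 49.6, 50.1 and 51.7 CPM in the labelled knockout libraries. All 3 libraries labelled knockout were above the controls, by a small margin. It rose by a log2 fold change of 0.11 (95% interval 0.03 to 0.18, edgeR adjusted p = 0.0135). The call was lost without control replicate 2 (0.07, edgeR adjusted p = 0.122), without labelled knockout replicate 3 (0.09, edgeR adjusted p = 0.0612), with DESeq2 (adjusted p = 0.0687) and after GC and length correction (0.03, edgeR adjusted p = 0.545). The ratio of Suv39h2 to Suv39h1 was 1.53, 1.30 and 1.30 in control and 1.49, 1.54 and 1.64 in the labelled knockout libraries. Control replicate 1 overlapped with the other group, and the log2 difference of 0.18 did not pass (two-sided exact permutation test, p = 0.2).

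**Figure D3:**
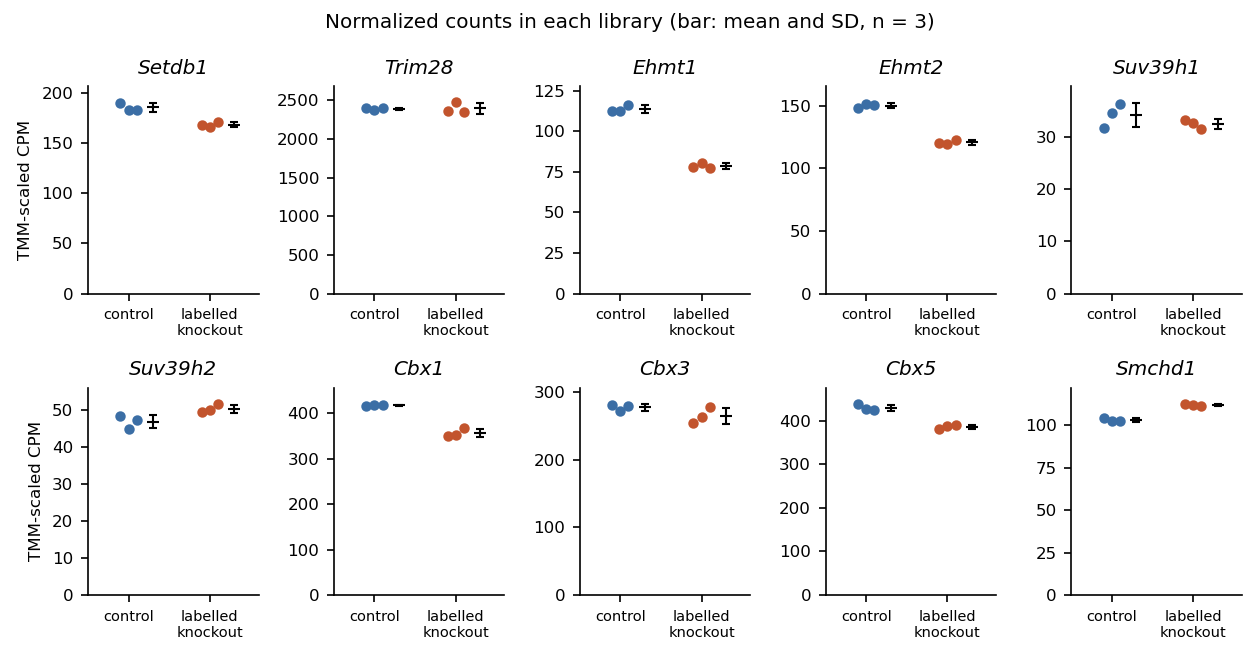
TMM-scaled CPM (y axis, from 0) of each gene in the 3 control (blue) and 3 labelled knockout (red) libraries, each point 1 library, with the mean and SD as a black bar. The groups are apart for Ehmt1, at 112 to 116 against 77.0 to 80.6 CPM, and overlap for Trim28, Suv39h1 and Cbx3.

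The HP1 genes encode the readers of the mark. HP1 beta gene Cbx1 (chromosome 11) was at 415, 418 and 418 CPM in control and at 350, 352 and 368 CPM in the labelled knockout libraries. The groups did not overlap, and the log2 fold change was -0.23 (95% interval -0.27 to -0.18, edgeR adjusted p = 1.16e-11). HP1 alpha gene Cbx5 (chromosome 15) was at 438, 427 and 426 CPM in control and at 382, 389 and 390 CPM in the labelled knockout libraries. It too was lower in every library labelled knockout, with a log2 fold change of -0.15 (95% interval -0.20 to -0.11, edgeR adjusted p = 1.30e-07).

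HP1 gamma gene Cbx3 (chromosome 6), whose protein is also found in euchromatin, was at 281, 271 and 279 CPM in control and at 254, 263 and 277 CPM in the labelled knockout libraries. Labelled knockout replicate 3 lay within the control range. The log2 fold change of -0.06 (95% interval -0.12 to -0.01, edgeR adjusted p = 0.0301) passed, but the call was lost with DESeq2 (adjusted p = 0.0588) and without any of 4 libraries: control replicate 1 or 3 (edgeR adjusted p = 0.0703 or 0.0900) and labelled knockout replicate 1 or 2 (edgeR adjusted p = 0.289 or 0.0937). After GC and length correction it was -0.15. Of the longest Cbx3 transcript, 5.78% matched 11 other genes at 95% identity or more over at least 76 bases, mainly processed pseudogenes, and fragments with multiple locations were not counted.

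The HP1 genes differed in how far they fell. Their summed level was 1134, 1117 and 1124 CPM in control and 986, 1004 and 1035 CPM in the labelled knockout libraries. All 3 libraries labelled knockout were below the controls, and the sum fell by 10.4% (two-sided exact permutation test, p = 0.1). Per kb, Cbx1 took 55.0% ± 0.486 of the 3 genes' sum in control and 52.7% ± 0.320 in the labelled knockout libraries (SD, n = 3). Cbx3 took 29.7% ± 0.393 and 31.8% ± 0.497, and Cbx5 15.3% ± 0.207 and 15.5% ± 0.316.

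The ratio of Cbx3 to Cbx1 counts was 0.676, 0.648 and 0.668 in control and 0.725, 0.747 and 0.755 in the labelled knockout libraries, a log2 difference of 0.16. The ratio of Cbx5 to Cbx1 differed by 0.07 and that of Cbx5 to Cbx3 by -0.09. None of these 3 ratios overlapped between the groups, and each had the smallest p of 0.1 (two-sided exact permutation test, 0.125 adjusted over 5 ratios). Of the 3 genes, Cbx1 thus lost the most relative to the others.

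**Figure D4:**
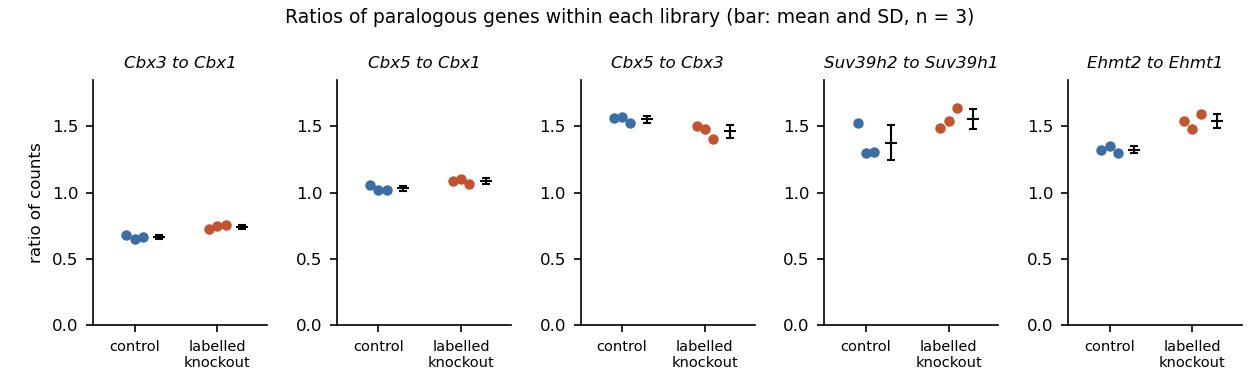
Ratio of the counts of paralogous genes within each library (y axis, from 0), each point 1 library, blue for control and red for labelled knockout, with the mean and SD as a black bar. Ehmt2 to Ehmt1 runs from 1.30 to 1.35 in control and from 1.48 to 1.59 in the labelled knockout libraries, and Suv39h2 to Suv39h1 overlaps between the groups.

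SMCHD1 is a non-canonical SMC protein of the inactive X chromosome. Smchd1 (chromosome 17) was at 104, 102 and 103 CPM in control and at 113, 112 and 111 CPM in the labelled knockout libraries. The groups were apart, and the log2 fold change was 0.12 (95% interval 0.06 to 0.18, edgeR adjusted p = 2.85e-04). After GC and length correction it was 0.06 (edgeR adjusted p = 0.0337). The span of Smchd1 overlaps those of 3 counted genes on its strand, and whether exons are shared was likewise not examined.

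In all, 7 of the 10 genes had normalized values that did not overlap between the groups, and 71.5% of all genes tested did so. The spread between lines was small, with a common coefficient of variation of 2.00%. Library pairs within a group were compared by chi-square per gene, the squared difference over that from counting error alone. It ran from 1.14 for control replicates 2 and 3, little above counting error, to 2.24 for labelled knockout replicates 1 and 3. Whether so small a spread is that of separate clones was not tested, and the p-values rest on it. With a dispersion fixed at 0.01, a coefficient of variation of 0.1, only Ehmt1 and Ehmt2 passed, both lower, and 24.8% of all genes passed as lower. After GC and length correction 7 of the 10 passed as lower and 2, Trim28 and Smchd1, as higher. With that correction 35.7% of all genes tested passed as lower and 34.1% as higher. Chromosomes were cut into fixed windows of 20 Mb, which are not centred on a gene. The median log2 fold change of the other genes in the window of each of the 10 lay between -0.16 and 0.07. Ehmt1, at -0.53, lay in a window with a median of -0.03.

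The other genes of the pathway were taken from 8 lists of 67 genes, of which 66 were tested. Of these 27 rose and 28 fell. Among all genes tested 34.4% rose and 35.2% fell, and 69.5% were called, so calls in the lists below are common in this comparison as such. Among the other H3K9 methyltransferases 3 of 4 rose. Prdm16, a PRDM family gene, went from 104 to 123 counts in control to 198 to 225 counts in the other group, with a log2 fold change of 0.97. Setdb2 and Prdm2 both rose by 0.15 on the log2 scale, and the call for Setdb2 was lost in 6 of 17 alternatives. Mecom, named after its values were seen, had 74 to 90 counts against 7 to 11 counts, a log2 fold change of -3.07 (edgeR adjusted p = 7.86e-17).

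Among 15 genes of SETDB1 and TRIM28 partners 5 rose, 7 fell and 3 did not pass, with a median log2 fold change of -0.06. Zfp809, a KRAB zinc finger gene that recognizes retroviral primer binding sites, fell by 0.93 on the log2 scale, from 752 to 839 counts to 343 to 465 counts. Zfp57, which binds methylated imprinting control regions, rose by 0.58, from 9113 to 9185 counts to 12309 to 13923 counts. Atf7ip2, a relative of the SETDB1 cofactor gene Atf7ip, fell by 0.29. These counts did not overlap between the groups. One of the 3 Zfp57 promoters held CAGGACCT or its reverse complement, at 2 places.

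Among 5 partners of G9a/GLP 2 rose and 3 fell. Wiz, a zinc finger gene whose protein tethers the complex to chromatin, rose by a log2 fold change of 0.48 (edgeR adjusted p = 7.59e-20), from 2236 to 2335 counts to 2885 to 3238 counts. It rose where Ehmt1 and Ehmt2 fell. Zfp644, another zinc finger partner, fell by 0.32, and Zfp518b rose by 0.09, a call lost in 7 of 17 alternatives. One of the 4 Wiz promoters held the 8 letters. No promoter read for Zbtb24, Zfp809, Atf7ip2, Zfp644, Zfp518b, Senp7, Prdm16, Setdb2, Kdm4c or Kdm7a held them. A gene with several promoters has more places for a match than the share per promoter given above.

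Among 16 heterochromatin partners 7 rose, 5 fell and 4 did not pass, with a median log2 fold change of 0.10. After Cdca7, Senp7 fell most, by 0.76 on the log2 scale, from 104 to 128 counts to 54 to 82 counts, and encodes a SUMO protease that binds HP1 alpha. Champ1, whose protein binds HP1 and POGZ, fell by 0.59. The 78 other genes of its 20 Mb window on chromosome 8 had a median of -0.60, so Champ1 moved with its neighbours. It was not the only such region. Windows on chromosomes 1 and 6 that hold other list genes had medians of 0.45 to 0.59, and those list genes moved in both directions. The window with 0.59 also holds the pluripotency marker Nanog, which rose by 1.13. That of Cdca7 had a median of 0.08. The causes of these regional shifts were not tested.

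Among 10 tested H3K9 demethylase genes 6 rose, 2 fell and 2 did not pass, with a median log2 fold change of 0.13. Kdm4b, a demethylase of trimethylated H3K9, rose by 0.47 and Kdm7a, which acts on dimethylated H3K9, by 0.38, whereas Kdm4c, a relative of Kdm4b, fell by 0.40. Kdm4c had 2773 to 2943 counts in control and 1857 to 2246 counts in the labelled knockout libraries. Kdm4d, the gene of the list below the count minimum, had at most 5 counts and was not tested.

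The last 3 lists held genes known to be silenced by these factors. Of 7 germline genes 2 rose, 4 fell and 1 did not pass. Dazl, a germ cell RNA-binding protein gene, rose by 0.81 on the log2 scale, while Taf7l and Sycp3, a testis transcription cofactor and a meiotic axis gene, fell by 0.68 and 0.63. All 5 genes of the 2-cell stage fell. Zscan4c, Zscan4f and Zscan4d had 307 to 340, 534 to 594 and 420 to 428 counts in control and 8 to 12, 16 to 25 and 15 to 25 counts in the labelled knockout libraries. Their log2 fold changes were -4.93, -4.62 and -4.37, and these values are uncertain, since fragments shared by the near-identical copies were not counted. Of 4 genes of the imprinted Snrpn cluster Magel2 fell by 2.62, from 330 to 347 counts to 45 to 61 counts, Peg12 rose by 1.30, from 99 to 115 counts to 236 to 256 counts, and Mkrn3 rose by 0.20, a call lost in 10 of 17 alternatives. Ndn, next to Magel2 and named after its values were seen, had a log2 fold change of 0.06 and did not pass. Genes within each of the germline and Snrpn lists therefore moved in both directions.

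**Figure D5:**
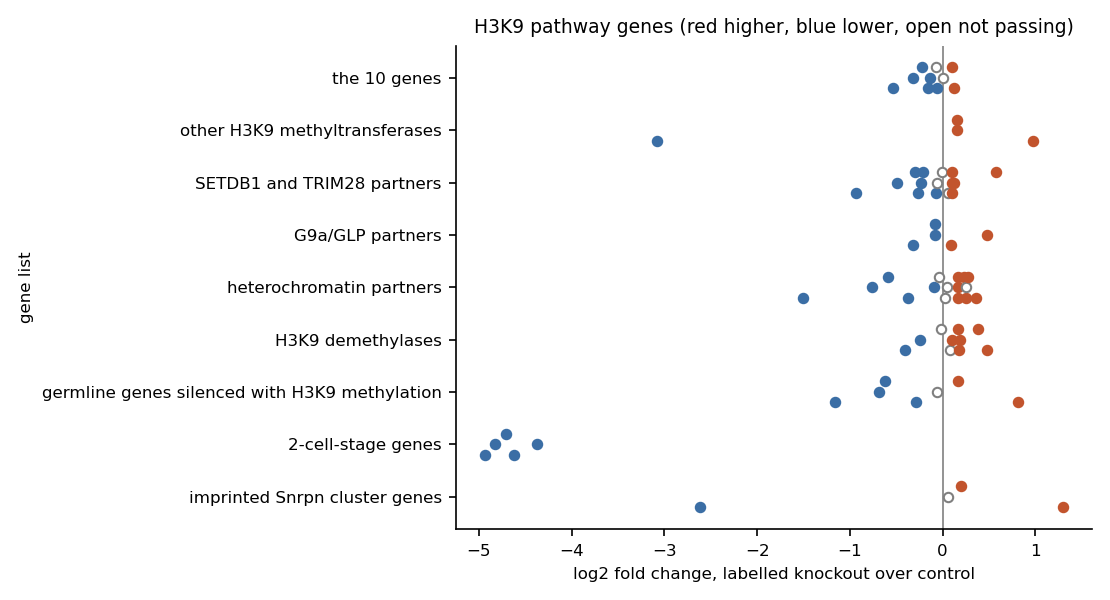
Log2 fold change (x axis) of each tested gene in the 10 genes and in 8 lists of the H3K9 pathway and its known silenced genes, each point 1 gene, red for higher, blue for lower and open for not passing. The 10 genes lie between -0.53 and 0.12, and the genes of the 2-cell stage between -4.93 and -4.37, where values of genes with at most 2 counts in the libraries labelled knockout depend on the prior count of the fit.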

How the data were processed

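The 6 libraries (TruSeq Stranded mRNA) were read as 2 ends of 76 bp. Per the methods, the authors removed rRNA reads with Bowtie2, mapped the rest to mm10 with TopHat2 and counted them with HTSeq per GENCODE gene in union mode, using the strand and dropping fragments of multiple genes or locations. The deposited counts were neither normalized nor filtered. Every column was matched to a sample by name, and groups came from the labels.

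Genes with at least 10 counts in 1 library or more were tested with edgeR 4.0.16 in R 4.3.3 (TMM, quasi-likelihood test, no covariate, Benjamini-Hochberg adjusted p at most 0.05). A standard error is the log2 fold change over the square root of F, and intervals use the total degrees of freedom of the test. The script was tested on simulated data. Ratios were compared with a two-sided exact permutation test. Symbols, lengths and GC content came from GENCODE M21 by gene identifier, which matched 42425 of 43309 genes. Transcript copies were sought with BLAST+ 2.17.0. The 10 genes, lists, named genes and motifs were chosen with earlier results of these data known. All 10 genes were named, with at most 3 genes of each list, those of largest absolute log2 fold change among called genes whose mean was 50 counts or more and whose groups did not overlap. Mecom and Ndn fall outside this rule, and Kdm4d was named as the only untested gene of the lists. Alternatives, named in the closing section, changed the scaling, tool, filter, depth, dispersion, block, GC and length correction or the libraries. PCR duplicates carry no molecular identifier, so counting error is a minimum.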

Additional observations from a re-analysis of the deposited data

How the results depend on the processing

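With 1 fixed dispersion of 0.01, 2 of the 10 genes were lower and 0 higher. Fixed at 0.04, 0 were lower and 0 higher, and Ehmt1 had an adjusted p of 0.0852 (edgeR exact test). A minimum absolute log2 fold change of 0.5 left 1 lower and 0 higher, and DESeq2 1 higher (29.9% of all genes tested). Of 66 list genes 18 were lower and 9 higher at a dispersion of 0.01 (24.8% and 20.4% of all genes tested), 11 and 3 at 0.04 (16.2% and 9.66%), and 14 and 4 with the minimum of 0.5 (20.0% and 13.9%). The median log2 fold change of the 10 genes was -0.13 with a mean of at least 50 counts and -0.14 after GC and length correction. Leaving out each library gave 5 to 6 lower and 1 to 2 higher of the 10 genes, a median of -0.13 to -0.10, and 25 to 28 lower and 23 to 28 higher list genes. Of all genes tested 33.6% to 34.3% were then lower and 32.5% to 33.5% higher. The log2 fold change of Trim28 was -0.0136 with a mean of at least 50 counts and between -0.0181 and 0.0225 with a library left out, and no such value passed. Differences in paralog ratios kept their sign with each library left out, and were not recomputed with the GC and length correction. The causes of these differences were not tested.

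Replicate numbers were shared by the groups, but deviations of same-numbered libraries correlated at only 0.0236, 0.0522 and 0.00980, so the numbers were not taken as pairs. With the replicate number as a block, 6 of the 10 genes were lower and 2 higher, and 28 list genes were lower and 28 higher. Of all genes tested 35.5% were then lower and 34.7% higher.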
